A study of Sus scrofa with 6 samples.

Results

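The paired arms of 4 miRNA precursors, miR-151, miR-425, miR-885 and miR-1306, were examined in newborn pig liver together with miR-191, whose gene lies beside that of miR-425. The members are the 9 array rows ssc-miR-151-5p, ssc-miR-151-3p, ssc-miR-425-5p, ssc-miR-425-3p, ssc-miR-191, ssc-miR-885-5p, ssc-miR-885-3p, ssc-miR-1306-5p and ssc-miR-1306-3p, chosen by name out of 236 rows that carry a pig miRNA name. Liver RNA of purebred Large White (LW) piglets, a Western breed that serves as the control, was compared with that of purebred Erhualian (EHL) piglets, a Chinese indigenous breed. All piglets were male and newborn. Each breed was measured on 3 single-colour arrays, and each array held RNA pooled from 2 littermates, so that an array stands for a litter and the spread between littermates is not seen. The piglets came from 2 farms, and the farm of each litter was not found in the sources used here, so its part in a breed difference was not tested.

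A miRNA is cut from a hairpin-shaped precursor, which releases a short duplex made of the 5′ arm (5p) and the 3′ arm (3p). One strand is usually loaded into an Argonaute protein and kept, while its partner is broken down, and which strand is kept can vary between tissues. Both arms stem from the same transcript, so the ratio of their signals follows strand retention and stability apart from transcription. Each of the 5 miRNA genes overlaps a protein-coding gene in the RefSeq table of the pig assembly Sscrofa11.1. The overlapping gene is PTK2, the focal adhesion kinase, for miR-151, and DALRD3 for both miR-425 and miR-191, which are known to be made from a shared transcript. It is ATP2B2, a plasma membrane calcium pump, for miR-885, and DGCR8, the partner of Drosha in cutting primary miRNA transcripts, for miR-1306. In the liver, miR-885-5p is known as a miRNA that appears in serum when the organ is damaged, and miR-151-5p has been studied for its part in the migration of liver cancer cells.

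The liver identity of the samples was checked with miRNAs of known cell types. The hepatocyte miRNA miR-122 had a signal between 18287 and 28071 on the 6 arrays, and miR-192 lay between 3640 and 5592. Of the 4 hepatocyte rows, 3 were listed on all arrays and miR-194 was blank. Among the 8 rows of skeletal and heart muscle miRNAs, 7 were blank on every array, while the row of miR-133a-3p held 17 on LW array 2 and 14 on both LW array 3 and EHL array 1. The rows for miR-155 of white blood cells, miR-217 of the pancreas and miR-124a and miR-9-1 of neurons were blank, and miR-128, which neurons also hold, lay between 63 and 106. A blank gives no level and does not show that a miRNA or its cells were absent. Sequencing in the study, of liver RNA pooled within each breed, found miR-155 and miR-133a, both higher in EHL. The study marks both as undetected on its array through low fluorescence. EHL array 1 stood apart in several rows. Of the red blood cell miRNAs, miR-451 was 376 there and 54 to 220 on the other arrays. The signal of miR-486 was 34 against 22 to 29. Outside this list, miR-148a was 2256 on EHL array 1 against 669 to 1326, and miR-424 was 213 against 28 to 84. The sum of miR-451 and miR-486 was 249, 124 and 159 on LW arrays 1 to 3 and 410, 78 and 85 on EHL arrays 1 to 3. Several results moved when EHL array 1 was left out. The part of the red blood cell signal or of the other rows in those results was not tested. A liver sample holds many cell types, and fewer cells of a type cannot be told apart from less RNA per cell.

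The signals of the 9 rows ran from 13 for miR-1306-3p to 3350 for miR-191, against a lowest listed signal of 10 to 16 on the 6 arrays. A signal is the fluorescence of a probe after background subtraction and normalization, and it depends on how well the probe hybridizes, so levels of different rows are not ranked. On every one of the 6 arrays, 8 of the 9 rows had a value. The row miR-1306-3p was blank on LW array 1 and EHL array 2. All 9 entered the test between breeds, for which a row needed values from 2 or more arrays per breed, and which 109 named rows met.

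**Figure D1:**
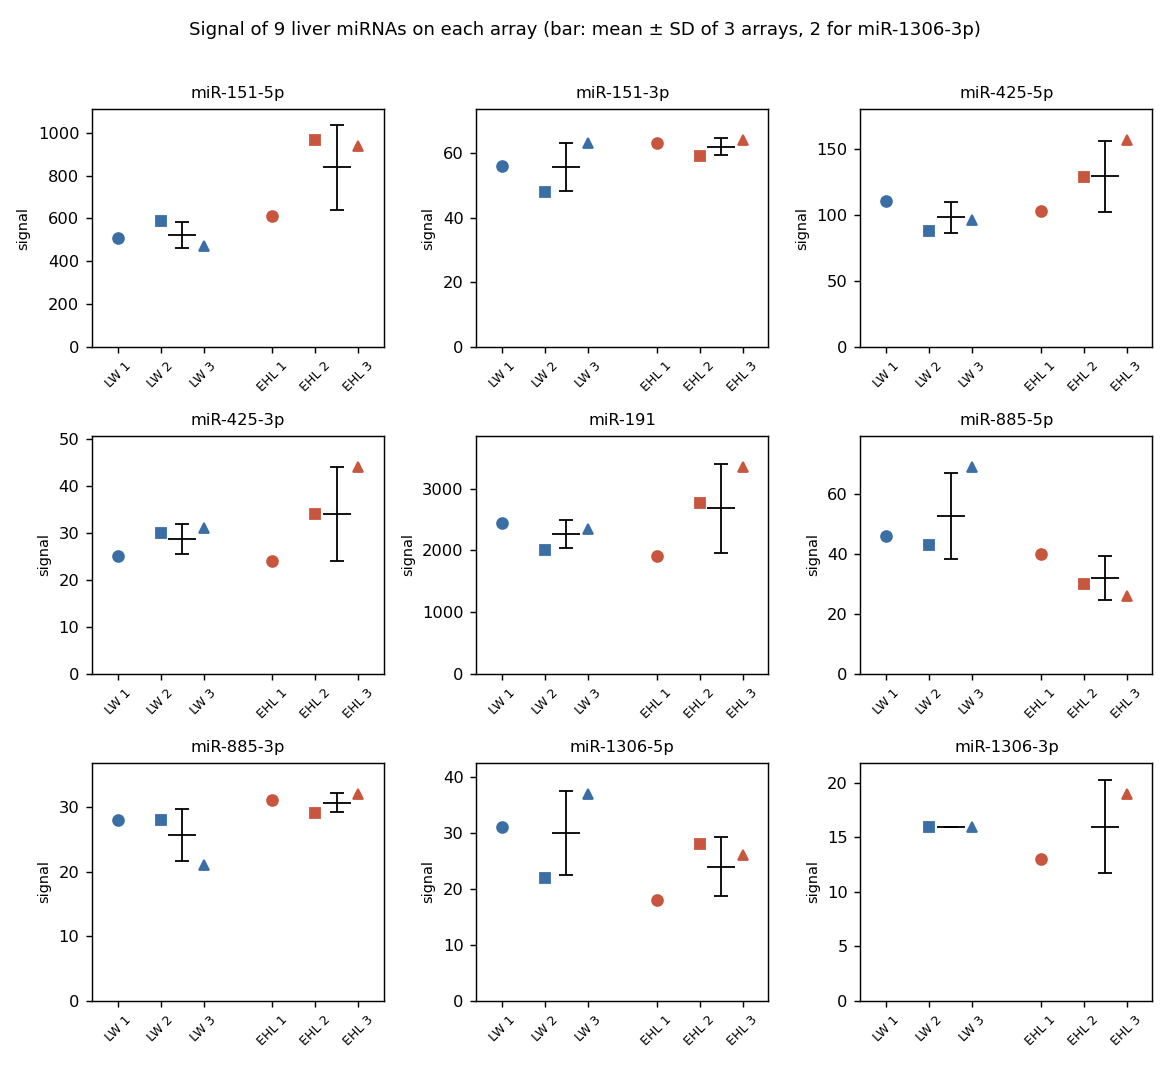
Normalized signal (vertical axis, linear, from 0) of each of the 9 miRNA rows on LW arrays 1 to 3 (blue) and EHL arrays 1 to 3 (red), with the mean and SD of each breed as black bars and 1 symbol per array number. The breeds do not overlap for miR-151-5p, miR-885-5p and miR-885-3p.

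Of the 9 rows, 0 passed an FDR of 15% by limma, the threshold that the study set for its miRNA arrays. Limma is a linear model that shares the estimate of the spread among all rows. Over all 109 rows tested, 1 row, or 0.917%, passed, and it was miR-184. At an unadjusted p under 0.05, limma gave 2 of the 9, miR-151-5p and miR-885-5p, and 13 of the 109 rows, or 11.9%. SAM, a permutation method recomputed here, adds a constant to each standard error, and the way to choose it was not given in the sources used here. With the constant that makes the statistic vary least over the range of standard errors, SAM called 0 of the 9 and 3 of the 109 rows, or 2.75%. With the constant at the 5th percentile of the standard errors, a rule chosen after the results of the other were seen, it called 1 of the 9, miR-151-5p, and 8 of the 109 rows, or 7.34%. The SAM call of miR-151-5p thus depends on a choice made with results in view. The miRNAs that the study lists from its own SAM at an FDR of 15% do not include miR-151-5p. They do include miR-15b, miR-221 and miR-27a, lower in EHL, which neither rule called here. The number called by limma was 0 without LW array 3 or EHL array 2 (5 and 10 at an unadjusted p under 0.05) and 2 without LW array 1. Without EHL array 1, 97 rows were left to test and 24 of them, or 24.7%, were called, with 2 of the 8 members tested among them, miR-151-5p and miR-885-5p.

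The log2 difference between breeds (EHL minus LW) was above 0 for 6 of the 9 rows and below 0 for 3, and quantile normalization turned 5 of the 6 below 0, while centring each array on the median of the rows listed throughout turned none. Over all 109 rows, 56 were above 0 and 53 below. The median was 0.21 for the 9 rows, against 0.0247 over the 109. Every EHL array exceeded every LW array for 2 of the 8 rows listed throughout, miR-151-5p and miR-885-3p, as was so for 11 of the 96 such rows, or 11.5%. Every EHL array lay below every LW array for 1 of the 8, miR-885-5p, as was so for 7 of the 96, or 7.29%. For a single row, 3 arrays against 3 cannot give an exact permutation p below 0.1.

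**Figure D2:**
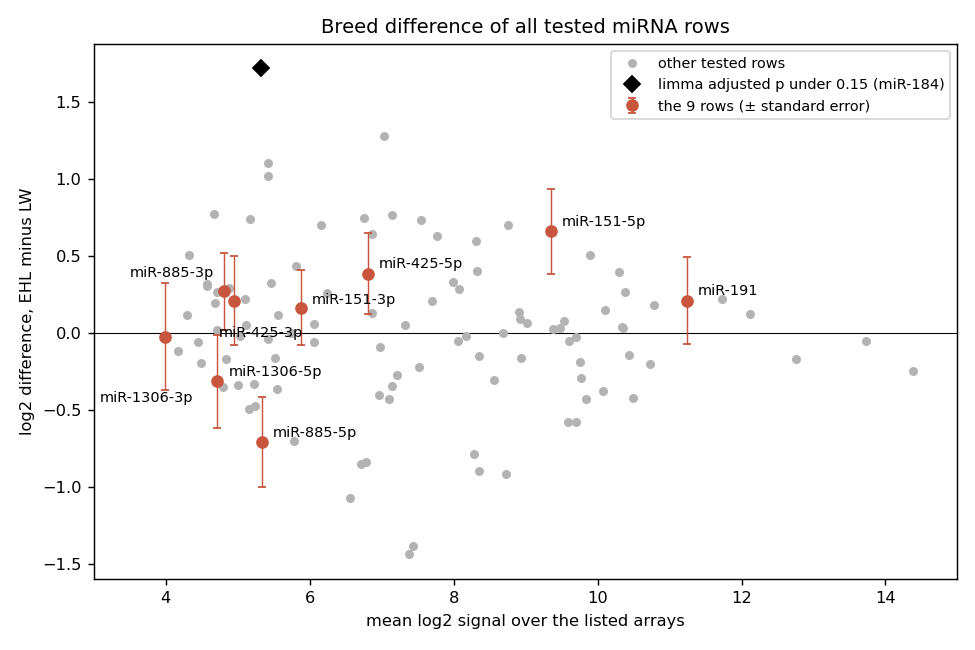
Log2 difference between breeds (EHL minus LW, vertical axis) against mean log2 signal (horizontal axis) for the 109 tested rows, with the 9 rows in red with their standard errors and the single called row, miR-184, as a black diamond. Among the 9, miR-151-5p has the highest difference at 0.66 and miR-885-5p the lowest at -0.71.

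Of the arms of miR-151, whose gene lies within PTK2, the 5p arm had the higher values in EHL on every array, and the 3p arm differed less. The signal of miR-151-5p was 508, 589 and 470 on LW arrays 1 to 3 and 612, 966 and 939 on EHL arrays 1 to 3. EHL arrays 2 and 3 were far above the LW range, while EHL array 1 stood just above the highest LW array. LW arrays averaged 522 ± 60.8 and EHL arrays 839 ± 197 (mean ± SD, n = 3 arrays per breed), and the ratio of the geometric means was 1.58. By limma, the log2 difference was 0.66 (standard error 0.28, 95% confidence interval 0.0377 to 1.28, adjusted p = 0.335). The SAM q-value, the estimated FDR at which a row would be called, was 20.6% by the first rule for the constant and 9.86% by the one chosen afterwards. Without EHL array 1 the log2 difference was 0.87, and limma called it (adjusted p = 0.0579, in a range of 0.0579 to 0.976 over the alternatives), while with arrays centred on the median of all listed rows it was 0.38.

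The 3p arm of miR-151 had closer values in the breeds. Its signal was 56, 48 and 63 in LW and 63, 59 and 64 in EHL, and the breeds overlapped. The log2 difference of miR-151-3p was 0.16 (standard error 0.24, limma adjusted p = 0.833), and it turned to -0.28 with quantile normalization and to -0.12 with arrays centred on the median of all listed rows. It ranged from 0.0610 without LW array 2 to 0.26 without LW array 3. Each of these scalings shifted the breed difference of the rows listed on all 6 arrays by -0.28 on average, and the second was chosen after the data were seen. The second moves all rows of an array alike, by a median over unequal sets of rows, since 119, 134 and 121 rows were listed on LW arrays 1 to 3 and 123, 101 and 117 on EHL arrays 1 to 3. With the median taken over the rows listed on all 6 arrays the shift was -0.0426.

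The log2 ratio of 5p to 3p puts both arms of a precursor on the same array, where a scaling of the whole array cancels. For miR-151 it was 3.18, 3.62 and 2.899 on LW arrays 1 to 3 and 3.28, 4.03 and 3.87 on EHL arrays 1 to 3. LW array 2 lay above EHL array 1, so the breeds overlapped. The ratio was higher in EHL by 0.50 on the log2 scale (standard error 0.30, 95% confidence interval -0.22 to 1.21), which did not pass (limma adjusted p = 0.396, exact permutation p = 0.2, two-sided). Without EHL array 1 the difference was 0.72 and it was called (limma adjusted p = 0.0889, in a range of 0.0889 to 0.880 over the alternatives). Without LW array 3 it was 0.33, and with quantile normalization 0.81. The size of a ratio also holds the unequal hybridization of the probes, so only its difference between breeds was compared.

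In the deposited signals miR-885-5p was lower and miR-885-3p higher on every EHL array than on every LW array, and the sign of miR-885-3p turned with 2 of 3 other scalings. The signal of miR-885-5p, the arm that is known from liver serum studies, was 46, 43 and 69 on the LW arrays and 40, 30 and 26 on the EHL arrays. All EHL values were below all LW values, with LW array 3 well above the rest. The SD was 14.2 around an LW mean of 52.7 and 7.21 in EHL (n = 3 arrays per breed), and the ratio of the geometric means was 0.611. The log2 difference was -0.71 (standard error 0.29, 95% confidence interval -1.37 to -0.0451, limma adjusted p = 0.335), and the SAM q-value was 33.0% by the first rule and 26.3% by the other. Without EHL array 1 the log2 difference was -0.88, and it was called (limma adjusted p = 0.0831, in a range of 0.0831 to 0.976 over the alternatives). With quantile normalization it was -1.19, and it was -0.50 when LW array 3 and -0.57 when EHL array 3 was left out, with no call.

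The 3p arm of miR-885 had a signal of 28, 28 and 21 on the LW arrays and 31, 29 and 32 on the EHL arrays. Here all EHL values were above all LW values, by as little as 1 signal unit between EHL array 2 and LW arrays 1 and 2, at signals not far above the lowest listed. LW arrays averaged 25.7 ± 4.04 and EHL arrays 30.7 ± 1.53 (mean ± SD, n = 3 arrays per breed), with a log2 difference of 0.27 (standard error 0.25, limma adjusted p = 0.727) that turned to -0.0381 with quantile normalization and to -0.0164 with arrays centred on the median of all listed rows, and was 0.23 with arrays centred on the rows listed throughout. Without LW array 3 it was 0.13. The ratio of the arms cannot be moved by centring whole arrays, and with quantile normalization its difference was -1.15.

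The log2 ratio of miR-885-5p to miR-885-3p was 0.72, 0.62 and 1.72 on LW arrays 1 to 3 and 0.37, 0.0489 and -0.30 on EHL arrays 1 to 3. Every EHL array had a lower ratio than every LW array, with LW array 3 the highest and EHL array 3 the lowest. The difference was -0.98 (standard error 0.36, 95% confidence interval -1.82 to -0.14), with an exact two-sided permutation p of 0.1, the smallest that this design allows. By limma the adjusted p over 11 ratios was 0.154, just outside the FDR of 15%, with an unadjusted p of 0.0280. Without LW array 3 the difference was -0.63 (limma adjusted p = 0.419), and without EHL array 1 it was -1.14 and was called (adjusted p = 0.0889). With the family limited to the 7 pairs named 5p and 3p and the miR-191 ratios, the adjusted p was 0.0830. Over its alternatives the adjusted p ranged from 0.0830 to 0.639 and passed in 5 of 12.

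**Figure D3:**
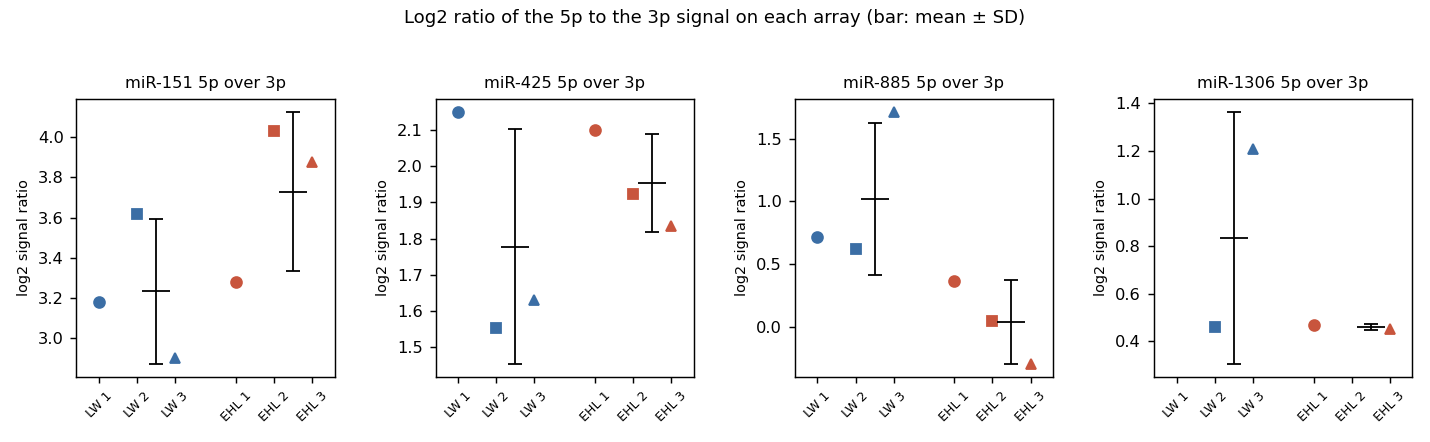
Log2 ratio of the 5p to the 3p signal (vertical axes, each with its own range) on LW arrays (blue) and EHL arrays (red) for the 4 precursors, with the mean and SD of each breed in black and 1 symbol per array number. For miR-885 all 3 EHL ratios lie below the LW ratios, and for miR-1306 a ratio is given on 2 arrays of each breed.

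The rows of miR-425 and of its neighbour miR-191 shared the same highest arrays, and the breeds overlapped in each of them. The signal of miR-425-5p was 111, 88 and 96 on LW arrays 1 to 3 and 103, 129 and 157 on EHL arrays 1 to 3, and that of miR-425-3p was 25, 30 and 31 in LW and 24, 34 and 44 in EHL. The signal of miR-191 was 2449, 2006 and 2344 in LW and 1913, 2775 and 3350 in EHL. For all 3 rows, EHL array 3 was the highest array and EHL array 2 the next, while EHL array 1 lay within the LW range for miR-425-5p and below it for miR-425-3p and miR-191.

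None of these 3 rows passed the test by limma, and 0 of them had an unadjusted p under 0.05 or a SAM call with either constant. The log2 difference was 0.38 (standard error 0.26, limma adjusted p = 0.604) for miR-425-5p, 0.21 (0.29, adjusted p = 0.833) for miR-425-3p and 0.21 (0.28, adjusted p = 0.833) for miR-191. With quantile normalization they turned to -0.17, -0.11 and -0.40, and with centring on the median of all listed rows those of miR-425-3p and miR-191 turned to -0.0758 each and that of miR-425-5p was 0.0997. The 95% confidence intervals were -0.21 to 0.98 for miR-425-5p, -0.45 to 0.86 for miR-425-3p and -0.43 to 0.85 for miR-191. Leaving out EHL array 1 gave differences of 0.54, 0.44 and 0.43 in the same order, with no call, and leaving out EHL array 3 gave 0.24, 0.00123 and 0.0290.

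**Figure D4:**
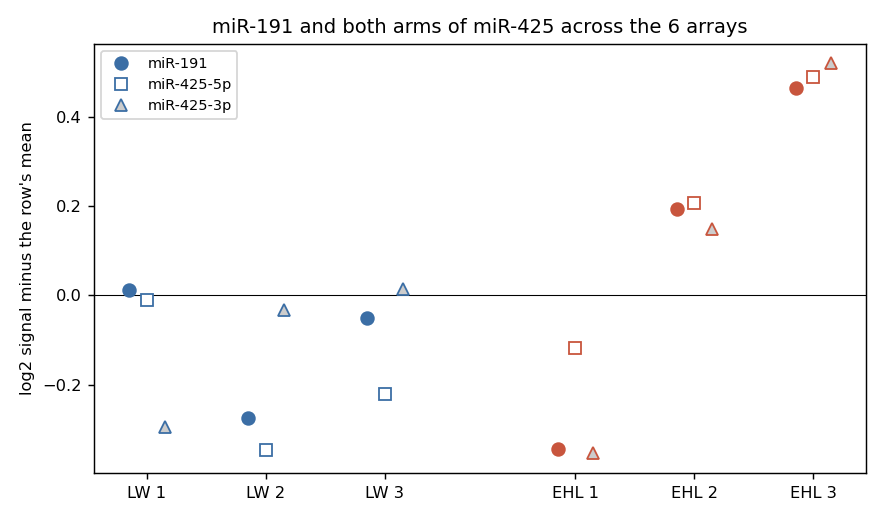
Log2 signal minus the mean of the row over the 6 arrays (vertical axis) for miR-191 (filled circles), miR-425-5p (open squares) and miR-425-3p (grey triangles) on each LW array (blue) and EHL array (red). All 3 rows are highest on EHL array 3, at 157 for miR-425-5p, 44 for miR-425-3p and 3350 for miR-191 on the signal scale.

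Over the 6 arrays, the log2 signals of miR-191 and miR-425-5p were correlated with r = 0.906 (Pearson) and rho = 0.829 (Spearman), and r was 0.959 without EHL arrays 1 and 3, the arrays farthest from the median of miR-191. For miR-191 and miR-425-3p the r was 0.831 and the rho 0.829, and r was 0.260 without the same arrays. Leaving out the farthest arrays narrows the range, which can lower r by itself. Among the 95 other rows listed throughout, miR-425-5p ranked 3 in its correlation with miR-191, behind miR-505 and miR-99b. The arms of miR-425 had an r of 0.697 and a rho of 0.543, with an r of 0.415 without LW array 2 and EHL array 3, and miR-425-3p ranked 25 for miR-425-5p. Centring arrays on the median of the rows listed throughout lowered the rho of miR-191 and miR-425-3p to 0.429. That of the miR-425 arms fell to 0.314, and that of miR-191 and miR-425-5p to 0.771. In the same order, r was 0.837, 0.691 and 0.883 after centring. All these values describe 6 arrays that share 1 normalization and include the breed difference.

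The arm ratio of miR-425 overlapped between the breeds. It was 2.15, 1.55 and 1.63 on LW arrays 1 to 3 and 2.10, 1.92 and 1.84 on EHL arrays 1 to 3 on the log2 scale. The highest and the lowest array were both LW. The breed difference was 0.18 (standard error 0.25, 95% confidence interval -0.41 to 0.76, limma adjusted p = 0.690), and it turned to -0.0587 with quantile normalization. Leaving out LW array 1 gave 0.36, LW array 2 0.0628, LW array 3 0.10 and EHL array 1 0.10.

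The log2 ratio of miR-191 to miR-425-5p was 4.46, 4.51 and 4.61 on LW arrays 1 to 3, against 4.22, 4.43 and 4.42 on EHL arrays 1 to 3. Each EHL ratio was below each LW ratio, by a small amount. The difference was -0.18 (standard error 0.21, 95% confidence interval -0.66 to 0.31, limma adjusted p = 0.662), with an exact two-sided permutation p of 0.1. It was -0.11 when EHL array 1 was left out. The ratio of miR-191 to miR-425-3p averaged 6.31 ± 0.28 on LW arrays and 6.31 ± 0.0510 on EHL arrays (mean ± SD, n = 3 arrays per breed), with a 95% confidence interval of -0.54 to 0.54 for the difference by limma.

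The arms of miR-1306, whose gene lies within DGCR8, had signals near the lowest listed and overlapped between the breeds. The signal of miR-1306-5p was 31, 22 and 37 in LW and 18, 28 and 26 in EHL, with a log2 difference of -0.32 (standard error 0.30, limma adjusted p = 0.746). The breeds overlapped, with the lowest value on EHL array 1. The difference was -0.12 without that array, -0.15 without LW array 3 and -0.52 without LW array 2, and it was -0.62 with quantile normalization and -0.60 with centring on all listed rows. The signal of miR-1306-3p was 16 and 16 on LW arrays 2 and 3 and 13 and 19 on EHL arrays 1 and 3. Its log2 difference was -0.0258 (standard error 0.35, limma adjusted p = 0.974), and a blank cell gives no level for the other arrays.

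The arm ratio of miR-1306 could be formed on 2 arrays of each breed. It was 0.46 and 1.21 on LW arrays 2 and 3 and 0.47 and 0.45 on EHL arrays 1 and 3 on the log2 scale. Apart from LW array 3, the ratios were almost equal. The difference was -0.37 (standard error 0.37, 95% confidence interval -1.30 to 0.56, limma adjusted p = 0.647), and with 2 arrays against 2 an exact permutation p cannot go below 0.333. With the replicate number as a term in the fit the difference was -0.76. That value compares EHL array 3 with LW array 3 alone, since no other replicate number had a ratio in both breeds.

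The 4 precursors were set beside the other arm pairs of the table. Of 42 pairs of rows that name the arms of 1 precursor, by 5p and 3p or by an asterisk, 9 had both rows listed on enough arrays, and with the miR-191 ratios they made 11 ratios tested together. By limma, 1 of the 11, or 9.09%, passed the FDR of 15%, and 0 of the 4 precursors did, with miR-885 alone among the 4 at an unadjusted p under 0.05. The pair that passed was miR-532, with a 5p to 3p difference of 1.67 (standard error 0.49, limma adjusted p = 0.1499) over 5 arrays, since miR-532-3p was blank on EHL array 2. The median size of the difference over the 9 pairs was 0.37. The difference of miR-885 ranked 2 in size among the 11, those of miR-151 and miR-1306 ranked 4 and 5, and that of miR-425 ranked 8. The pair miR-532 at 0.1499 and miR-885 at 0.154 lay on either side of the threshold. With only the pairs named 5p and 3p and the miR-191 ratios tested together, both were called. The call of miR-885 thus depends on which pairs are tested together. The number of pairs called was 0 without LW array 1, 2 or 3 (2, 2 and 1 at an unadjusted p under 0.05). Without EHL array 1 or 3, miR-532 could not be tested and 5 pairs remained, of which 0 were called without EHL array 3 (0 at an unadjusted p under 0.05) and 3 without EHL array 1, miR-151, miR-885 and miR-424. These 3 were 42.9% of the 7 ratios tested there. Of the 5 pairs listed on all 6 arrays, 1 did not overlap between the breeds, or 20%, and this was miR-885. Arms with opposite signs of the breed difference were found in 2 of the 9 pairs, miR-885 and miR-532. For miR-885, quantile normalization and the shift by unequal sets of listed rows gave both arms a negative sign, while centring on the rows listed throughout did not.

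**Figure D5:**
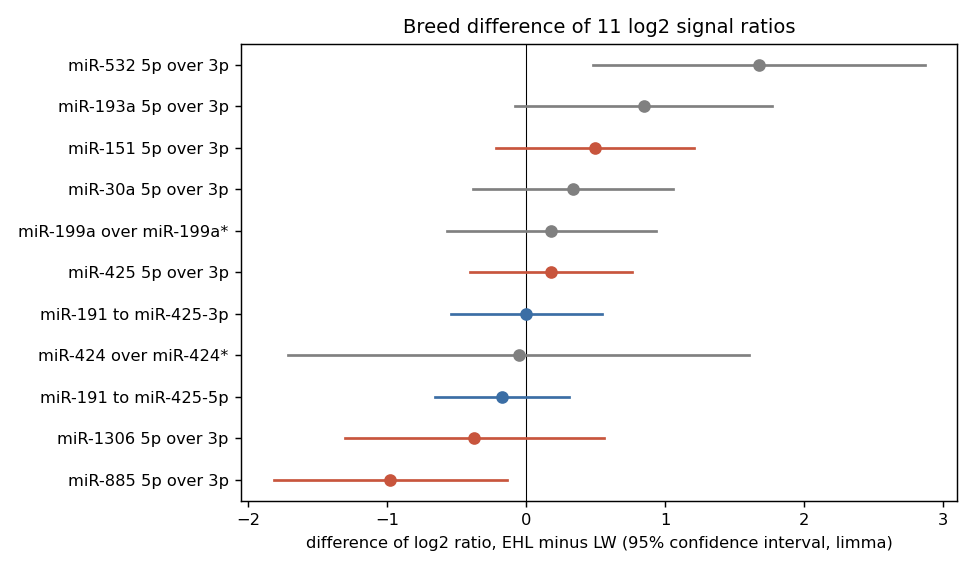
Breed difference (EHL minus LW, horizontal axis, log2 units) of the 11 log2 signal ratios with 95% confidence intervals from limma, for the 4 precursors (red), the miR-191 ratios (blue) and the other pairs (grey). The intervals of miR-885 and miR-532 do not include 0, and the other 9 do.

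The rows with the most similar course over the 6 arrays differed between arms. For miR-151-5p they were miR-185, miR-193a-5p and miR-361-5p, with Pearson's r of 0.965, 0.957 and 0.936. For miR-151-3p no row came close, and the highest r was 0.616, for miR-30d. The rho of the arms of miR-151 with each other was 0.232, with an r of 0.227 that was -0.32 without EHL arrays 2 and 3. For miR-885-5p the closest rows were miR-15b, miR-204 and miR-27a, with r of 0.974, 0.888 and 0.880, and the order of the arrays was the same for miR-15b and miR-885-5p, with a rho of 1. For miR-885-3p they were miR-143-3p, miR-184 and miR-24, with r of 0.809, 0.805 and 0.798. The arms of miR-885 had an r of -0.87 and a rho of -0.93 with each other. Without LW array 3 and EHL array 3, the arrays farthest from the median of miR-885-5p, r was -0.28. Leaving them out narrows the range, which can move r toward 0 by itself, and miR-885-3p then ran only from 28 to 31. With arrays centred on the median of the rows listed throughout, the r of the miR-885 arms was -0.72 and the rho -0.60.

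For miR-425-5p the closest rows were miR-505, miR-140* and miR-423-5p, with r of 0.992, 0.979 and 0.966, and for miR-425-3p they were miR-149, miR-23b and miR-128, with r of 0.972, 0.951 and 0.870. For miR-1306-5p they were miR-125b, miR-92b-3p and miR-92a, with r of 0.906, 0.855 and 0.824. With arrays centred on the median of the rows listed throughout, the closest row was the same for 6 of these 8 members, and it changed to miR-130b for miR-151-3p and to miR-455 for miR-191. The likeness is over 6 arrays and 95 other rows and is given as a description.

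Markers of the other liver cell types gave the following values beside these results. The sum of the smooth muscle miRNAs, led by miR-145, was 1270, 877 and 846 on the LW arrays and 868, 1344 and 1327 on the EHL arrays, and the log2 difference was 0.0770 for miR-145, whose breeds overlapped, and 0.60 for miR-143-3p, whose breeds did not (limma adjusted p = 0.974 and 0.443). The sum of the 6 rows of stellate cells and fibroblasts was 5619, 6122 and 5118 in LW and 4371, 6636 and 4273 in EHL. The log2 difference was 0.18 for miR-214 and -0.43 for miR-199a-3p, and it was -0.58 for miR-199b*, with every EHL array below every LW array (limma adjusted p = 0.505). Endothelial miR-126 was at 2209, 4098 and 3436 in LW and 4524, 3110 and 3506 in EHL. The 3 hepatocyte rows listed summed to 33001, 24963 and 28822 in LW and 28497, 24316 and 24137 in EHL. The log2 difference was -0.25 for miR-122, which leads that sum, 0.12 for miR-192 and 0.15 for miR-148a, whose signal was 824, 1326 and 1037 in LW and 2256, 669 and 1018 in EHL. Of the marker rows tested, 0 passed the FDR of 15% by limma, 0 had an unadjusted p under 0.05, and 0 were called by SAM with either constant. Their part in the differences of miR-151 and miR-885 was not tested.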

How the data were processed

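The samples were 6 pools hybridized to single-colour LC Sciences pig miRNA arrays. Each deposited intensity was background-subtracted and LOWESS-normalized by the authors and is on a linear scale, with some cells left blank. The study attributes miRNAs not detected on the array to low fluorescence. It also proposes that abundant miRNAs can go undetected when their bases differ from the database sequences used for the probes. The cut for a blank cell was not given in the sources used here. Log2 intensities, without a pseudocount, were fitted by limma 3.58.1 in R 4.3.3 (lmFit and eBayes, breed as the only term, Benjamini-Hochberg adjustment over 109 rows, called at adjusted p under 0.15). The 100 rows with an LRS label were left out. Log2 ratios were fitted by limma over 11 ratios. SAM was recomputed with 20 relabellings under 2 rules for its added constant; the rule at the 5th percentile was chosen after the results of the other were seen. The number of arrays limits the precision. Figures used matplotlib 3.10.9. Rows named were the members, the 3 rows closest to each member by Pearson's r, arm pairs that passed, and cell type markers; rows sharing a seed were not analysed here, and miR-184, the row called by limma, was named after its values were seen. Members and lists were chosen with earlier results of these data known. Alternatives covered normalization, filters, test, array weights, replicate block, blank cells and each array left out.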

Additional observations from a re-analysis of the deposited data

How the results depend on the processing

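By limma, 1 of the 109 rows was called. It was 0 with quantile normalization (11 at an unadjusted p under 0.05), with the replicate block (8) and with centring on the median of all listed rows (9), which was chosen after seeing the data; array weights gave 7. SAM gave 3 with the first rule for its constant and 8 with the 5th percentile, a rule chosen after the results of the first were seen; miR-151-5p was called under the second only. With each array left out the number ranged from 0 (without LW array 3 or EHL array 2) to 24 (of 97 tested without EHL array 1), the latter with miR-151-5p and miR-885-5p. Signs turned with quantile normalization for miR-151-3p (-0.28), miR-425-5p (-0.17), miR-425-3p (-0.11), miR-191 (-0.40) and miR-885-3p (-0.0381), and with centring on all listed rows for miR-151-3p (-0.12), miR-425-3p and miR-191 (-0.0758 each) and miR-885-3p (-0.0164). These scalings moved the breed difference by -0.28 on average, the latter through medians over unequal sets of rows. Centring on the rows listed on all arrays moved it by -0.0426, turned no sign of the 9 miRNAs and called 1 row. The replicate block turned miR-1306-3p to 0.25, a value that compares EHL array 3 with LW array 3 alone. Of the alternatives that estimated the difference of a single miRNA anew, 73 kept direction and side of the threshold, 10 turned the sign and 2 gained a call (miR-151-5p and miR-885-5p without EHL array 1). The others, filters, tests and thresholds, reuse the same difference by construction and say nothing of its stability. Of the arm pairs, 1 was called. The number was 2 with quantile normalization and array weights, and 3 of 7 with only pairs named 5p and 3p. With blank cells set to the lowest listed signal it was 4 of 19 pairs tested, against 9 tested in the main fit. It was 0 with the replicate block (0 at an unadjusted p under 0.05) and with the exact permutation test, whose p cannot go below 0.1 here. It ranged from 0 to 3 with each array left out. The ratio difference of miR-885 was called at -1.15 with quantile normalization, -1.01 with array weights and -0.98 with the 5p and 3p pairs or with filled blanks, and it ranged from -1.18 to -0.63 with arrays left out, with adjusted p between 0.0830 and 0.639 over its alternatives. That of miR-151 ranged from 0.33 to 0.72 with arrays left out and was 0.81 with quantile normalization. That of miR-425 turned to -0.0587 with quantile normalization. That of miR-191 to miR-425-3p, near 0, turned to -0.29 with quantile normalization and -0.00465 with mean linear signals, and ranged from -0.12 to 0.15 with arrays left out. The cause was not tested. The replicate numbers did not pair the arrays, with correlations of -0.50, -0.0115 and -0.66 between the deviations of same-numbered arrays. Signals near the lowest listed limit the values of miR-1306-3p, miR-1306-5p, miR-425-3p, miR-885-5p and miR-885-3p and the ratios made from them.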
